A study of Mus musculus with 12 samples.

Results

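The genes described here are 34 genes of the endoplasmic reticulum (ER) stress response and of the ATF4 response, chosen by symbol from the 48440 genes of the count table and followed in mouse bone marrow-derived macrophages. Of them 22 belong to the ER itself: 3 stress sensors, 9 chaperones and co-chaperones, 3 protein disulfide isomerases, 2 small secreted stress proteins and 5 genes of ER-associated degradation. The other 12 are 5 transcription factors and 7 targets of ATF4 or CHOP. When unfolded proteins gather in the ER, the sensors IRE1 (Ern1), ATF6 and PERK (Eif2ak3) set off the unfolded protein response: IRE1 splices Xbp1 mRNA, ATF6 is cut to release a transcription factor, and PERK phosphorylates the translation factor eIF2α. XBP1 and ATF6 raise chaperones, isomerases and degradation factors, whereas eIF2α phosphorylation slows protein synthesis while favouring translation of ATF4. ATF4 then turns on genes of amino acid supply and stress signalling, including Ddit3 (CHOP), and other kinases that sense amino acid shortage or viral RNA reach the same factor. In macrophages these pathways accompany secretion and cytokine output.

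The study grew macrophages from bone marrow labelled WT or CKO and left them untreated or treated them with IFN-γ at 100 U/mL or IL-4 at 20 ng/mL for 24 h, giving 6 groups of 2 libraries each. IRF8, a transcription factor of myeloid cells, appears in the study's title, but the labels do not say which gene CKO stands for, how it was deleted, or the strain, sex and age of the mice. Nor do they say whether libraries came from separate animals, so the p-values cover library-to-library spread that could be purely technical.

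The 12 libraries held 21287725 to 32717379 counts, and levels are given below as CPM, counts scaled to library depth and adjusted between libraries. Irf8 was at 90.9 and 91.2 CPM in the untreated WT libraries and at 293 and 248 CPM in those labelled CKO, and it was also higher in CKO after IFN-γ and after IL-4. This goes against loss of the whole Irf8 transcript and does not show which gene was targeted, so CKO below means the libraries labelled CKO. The 8 macrophage markers summed to 2959 CPM or more in every library. Untreated CKO library 1 stood apart, with 1.52% of its counts from the mitochondrial genome against 2.12% to 3.25% in the other 11. The main counts of called members and listed genes that use it are also given without it, and members that then lost their call are named. Counts by role or arm, of shared genes and of cell type markers are given only with it. Of the 34 genes, 32 passed the filter on low counts and were tested. Derl3, a degradation factor, had 1 to 10 counts per library and Vldlr, a lipoprotein receptor, had 2 to 12, and both went untested.

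Several of the genes carry known response elements just upstream of their starts, and these sequences are shown because several ER members have them in common. The members were chosen as genes of these responses, so the shares below describe them and are not a test. RefSeq promoter entries (GRCm38.p6) were found for 31 of the 34 genes, all but Atf6, Hyou1 and Manf, and the 250 bases before each start were searched on both strands. The ER stress element, ERSE, was searched as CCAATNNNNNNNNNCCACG. It occurred in 9 of 31 member genes (29.0%) and in 37 of all 32851 windows of that length (0.113%). In the matches the NF-Y site CCAAT and the ATF6 site CCACG are in capitals, written 5′ to 3′ in the element's own direction and with the coordinates of the match.
Hspa5, chr2:34772025-34772043: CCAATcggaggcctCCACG
Hsp90b1, chr10:86705638-86705656: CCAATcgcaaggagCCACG
Hsp90b1, chr10:86705533-86705551: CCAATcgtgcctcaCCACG
Calr, chr8:84847075-84847093: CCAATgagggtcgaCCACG
Canx, chr11:50325800-50325818: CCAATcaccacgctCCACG
Dnajc3, chr14:118937827-118937845: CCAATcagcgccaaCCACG
Pdia6, chr12:17266491-17266509: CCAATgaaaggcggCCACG
Creld2, chr15:88819520-88819538: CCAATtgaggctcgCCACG
Syvn1, chr19:6046532-6046550: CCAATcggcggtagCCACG
Derl3, chr10:75893242-75893260: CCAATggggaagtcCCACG

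The shorter ERSE-II, searched as ATTGGNCCACG, was found in 1 member, Herpud1 (3.23% of members against 0.0304% of all windows). The UPR element of XBP1 was searched only as TGACGTGG, and this form was found in none of the 31 and in 0.563% of all windows. The amino acid response element that ATF4 binds with C/EBP partners, CARE, was searched as TGATGNAA and occurred in 5 members (16.1% against 3.45%), which were Asns, Chac1, Herpud1, Nupr1 and Vldlr. Herpud1 thus held both kinds of element, whose matches do not overlap. The fixed letters of each match are in capitals.
Herpud1 ERSE-II, chr8:94386377-94386387: ATTGGgCCACG
Herpud1 CARE, chr8:94386317-94386324: TGATGcAA
Nupr1 CARE, chr7:126625573-126625580: TGATGcAA
Chac1 CARE, chr2:119351049-119351056: TGATGcAA
Asns CARE, chr6:7693225-7693232: TGATGaAA

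The whole window is given on the plus strand, with the matches in capitals, for Creld2, which had the largest genotype difference among the ER members, and for Herpud1, whose IFN-γ response differed between genotypes. Creld2 lies at chr15:88819646-88826683 and Herpud1 at chr8:94386438-94395377 in GENCODE (GRCm38), both on the plus strand.
Creld2, chr15:88819396-88819645: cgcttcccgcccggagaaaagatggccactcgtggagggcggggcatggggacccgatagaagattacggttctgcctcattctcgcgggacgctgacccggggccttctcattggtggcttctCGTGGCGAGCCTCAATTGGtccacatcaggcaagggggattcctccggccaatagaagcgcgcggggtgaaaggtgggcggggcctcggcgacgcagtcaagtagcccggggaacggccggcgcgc
Herpud1, chr8:94386179-94386428: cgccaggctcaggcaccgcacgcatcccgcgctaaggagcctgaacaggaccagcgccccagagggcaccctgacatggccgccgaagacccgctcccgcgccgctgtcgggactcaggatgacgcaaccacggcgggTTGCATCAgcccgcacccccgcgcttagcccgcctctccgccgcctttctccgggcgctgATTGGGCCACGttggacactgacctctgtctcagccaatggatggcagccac

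A match shows only that these letters are present. Of the 8 tested ER members with an ERSE, 5 were lower in untreated CKO than in WT libraries, and of the 10 tested ER members with a window but no ERSE, 5 were also lower, where 9.37% of all tested genes were lower. These 10 include Herpud1, which has the ERSE-II. After IL-4 in CKO, 7 of the 8 and 5 of the 10 were higher than without cytokine, against 11.2% of all genes. With untreated CKO library 1 left out, these counts were 4 and 2 lower in untreated CKO, and 6 and 4 higher after IL-4.

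Without cytokine, ER folding genes were lower in CKO than in WT macrophages. Of the 32 tested members 13 were lower and 2 higher at an adjusted p under 0.05 (edgeR's quasi-likelihood test, adjusted over 16292 genes), against 9.37% of all tested genes lower, 8.60% higher and 18.0% either way. The lower genes were 6 of 9 chaperones and co-chaperones, 3 of 3 disulfide isomerases, both secreted proteins, 1 degradation factor and Atf4. Fold changes are on the log2 scale, ± their SE from the fit, throughout. The median log2 fold change was −0.47 over the 21 tested ER members and 0.00 over all genes.

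Creld2, a secreted ER stress protein, was at 36.1 and 39.2 CPM in WT and at 16.6 and 22.8 CPM in CKO libraries, a log2 difference of −0.93 ± 0.15 (adjusted p = 0.0019). Manf, a secreted factor that also binds the main ER chaperone, was at 77.9 and 91.1 CPM in WT and 37.2 and 52.9 CPM in CKO, a difference of −0.91 ± 0.18 (adjusted p = 0.00668). Hyou1, the large Hsp70-like chaperone GRP170, was at 294 and 271 CPM against 117 and 185 CPM, a difference of −0.90 ± 0.18 (adjusted p = 0.00668). These groups did not overlap for 59.4% of all tested genes. For Creld2, Manf and Hyou1 both CKO libraries lay below both WT libraries, and CKO library 1 was the lower of its pair. Sdf2l1, part of an ER co-chaperone complex, showed the same order at 62.8 and 85.7 CPM in WT and 28.9 and 51.6 CPM in CKO, with a difference of −0.88 ± 0.23 (adjusted p = 0.0283). Hspa5 (BiP), the ER's Hsp70 chaperone and the classical readout of the response, was at 1054 and 1097 CPM in WT and 694 and 783 CPM in CKO, a difference of −0.54 ± 0.11 (adjusted p = 0.00751). Without CKO library 1 the differences of Creld2 (−0.72, adjusted p = 0.00864), Manf (−0.67, adjusted p = 0.0465) and Hyou1 (−0.60, adjusted p = 0.0208) were smaller and still called, whereas those of Sdf2l1 (−0.52, adjusted p = 0.126) and Hspa5 (−0.45, adjusted p = 0.0525) were not called.

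The other lower ER genes were the GRP94 chaperone gene Hsp90b1 (−0.70), the isomerase genes Pdia4 (−0.80), Pdia6 (−0.78) and Pdia3 (−0.58), the J-domain co-chaperone genes Dnajb11 (−0.56) and Dnajc3 (−0.35), and Edem1 (−0.42), a lectin that sends glycoproteins to degradation, all as log2 differences. Among the lectin chaperones, Calr differed by −0.47 ± 0.16 (adjusted p = 0.06) and Canx by −0.22 ± 0.10 (adjusted p = 0.141). Dnajb9, another J-domain co-chaperone, was between 16.99 and 25.9 CPM in the 12 libraries and was called in none of the 9 comparisons, with differences from −0.20 to 0.22. The 3 sensors differed by 0.00 to 0.20 and none passed the test. Xbp1, whose total count does not separate the spliced from the unspliced mRNA, was at 136 and 131 CPM in WT and 124 and 124 CPM in CKO (−0.11 ± 0.08, adjusted p = 0.337).

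In the ATF4 arm the genes did not move one way. Atf4 itself was at 172 and 181 CPM in WT and 132 and 151 CPM in CKO libraries (−0.32 ± 0.10, adjusted p = 0.0471). Ddit3 was at 22.9 and 18.8 CPM against 16.8 and 21.3 CPM, with overlapping groups and a difference of −0.13 ± 0.15 (adjusted p = 0.586). Cebpg, a dimer partner of ATF4, was higher in CKO by 0.49 ± 0.14 (adjusted p = 0.0356), as was Sesn2, a leucine-binding inhibitor of mTORC1, by 0.58 ± 0.14 (adjusted p = 0.0158).

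The number of calls in untreated cells changed with single libraries, and over all genes it fell and rose in the same fits. Of all genes 5.32% were called when the 4 untreated libraries were fitted alone, against 18.0% in the main fit. Leaving out WT library 1 gave 8 calls, leaving out WT library 2 gave 7, CKO library 1 gave 8 and CKO library 2 gave 18, and fitting the 4 untreated libraries alone gave 3, while the median over ER members lay between −0.38 and −0.63 in the leave-one-out fits. Hsp90b1, Pdia6 and Creld2 passed the test in all 4 of those fits, and Atf4 and Cebpg failed it when either WT library or the first CKO library was absent. Without CKO library 1 the members that lost their call were Hspa5, Sdf2l1, Pdia3 (−0.42, adjusted p = 0.0521), Edem1 (−0.33, adjusted p = 0.0842), Atf4 (−0.21, adjusted p = 0.261), Cebpg (0.29, adjusted p = 0.269) and Sesn2 (0.54, adjusted p = 0.0789), and the 8 calls left were all lower, where 2.63% of all genes were lower in that fit.

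**Figure D1:**
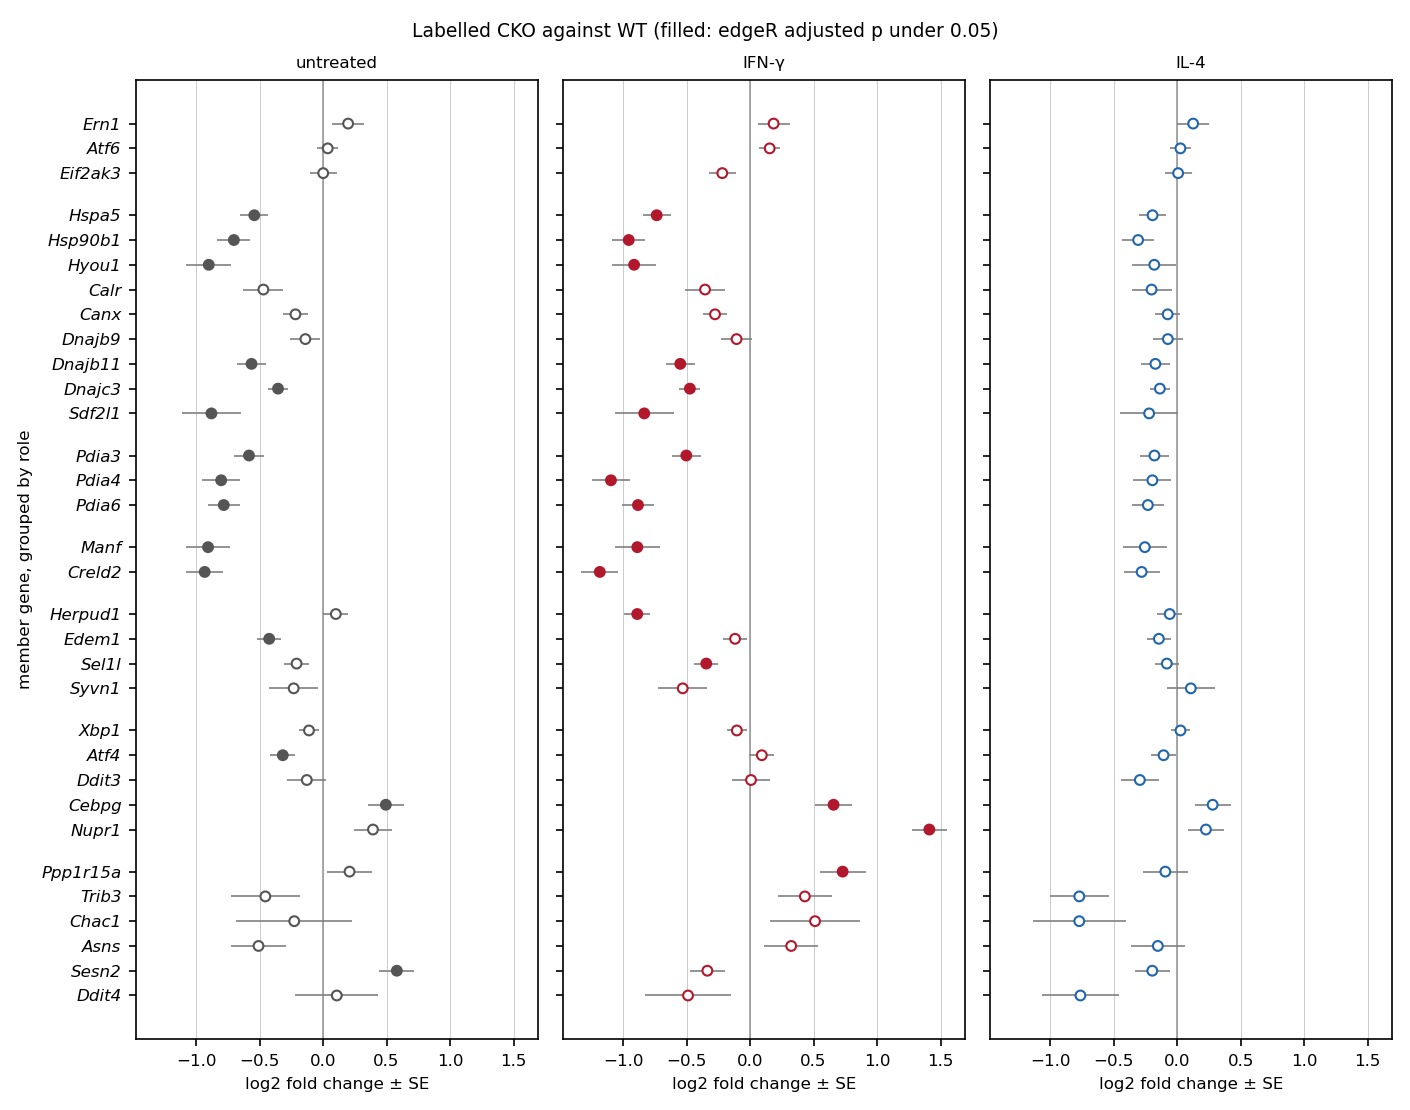
Log2 fold change of CKO over WT (x axis, ± SE from edgeR) for each of the 32 tested members (y axis, grouped by role) in untreated, IFN-γ-treated and IL-4-treated macrophages, 2 libraries per group. Filled points passed an adjusted p of 0.05: 15 in untreated cells, 16 after IFN-γ and none after IL-4.

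After IFN-γ the same side of the pathway was lower in CKO, and Nupr1 was higher. Of 32 tested members 13 were lower, all of them ER genes, and 3 were higher, all of them in the ATF4 arm (8.01% of all genes were lower, 10.4% higher and 18.4% either way). The median over the 21 ER members was −0.53 and over all genes 0.02. Creld2 was at 76.1 and 76.4 CPM in the treated WT libraries and 33.4 and 33.7 CPM in the treated CKO libraries (−1.18 ± 0.14, adjusted p = 0.000202). Pdia4, an isomerase of folding ER proteins, was at 271 and 296 CPM against 130.0 and 136 CPM (−1.10 ± 0.15, adjusted p = 0.000505). Hsp90b1 was at 1689.6 and 1958 CPM against 943 and 939 CPM (−0.96 ± 0.13, adjusted p = 0.000427). For these 3 genes each CKO library was below each WT library, and below each untreated WT library as well. The treated WT and CKO groups did not overlap for 63.0% of all tested genes.

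Herpud1, an ER membrane protein that assembles the degradation machinery, was at 36.3 and 34.5 CPM in WT and 19.1 and 19.1 CPM in CKO libraries after IFN-γ (−0.89 ± 0.10, adjusted p = 0.000132), whereas without cytokine it differed by 0.10 ± 0.10 (adjusted p = 0.508). Hspa5 was at 1453 and 1702 CPM in WT against 951 and 944 CPM in CKO (−0.74 ± 0.11, adjusted p = 0.000786). The further lower genes were Hyou1 (−0.91), Manf (−0.89), Pdia6 (−0.88), Sdf2l1 (−0.83), Dnajb11 (−0.55), Pdia3 (−0.50), Dnajc3 (−0.47) and the ubiquitin ligase subunit gene Sel1l (−0.35), as log2 differences. Edem1, lower in untreated CKO cells, differed by −0.12 ± 0.09 (adjusted p = 0.42) here.

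Nupr1, a small stress-induced chromatin protein, was at 9.11 and 10.9 CPM in WT and 27.2 and 26.2 CPM in CKO libraries after IFN-γ (1.41 ± 0.14, adjusted p = 4.07e-05), the largest difference among the members in this comparison. Cebpg was higher by 0.66 ± 0.14 (adjusted p = 0.00837) and Ppp1r15a, which encodes the GADD34 subunit that dephosphorylates eIF2α, by 0.73 ± 0.18 (adjusted p = 0.0165). Atf4 (0.09 ± 0.10, adjusted p = 0.568), Ddit3 (0.01 ± 0.15, adjusted p = 0.983) and Xbp1 (−0.10 ± 0.08, adjusted p = 0.388) were not called. Of the members lower in CKO, 11 were shared between untreated and IFN-γ-treated cells, which is 84.6% of the 13 in each. Over all genes 552 were shared, 36.2% of those lower in untreated and 42.3% of those lower in IFN-γ-treated CKO cells. With any 1 IFN-γ library left out, calls between genotypes after IFN-γ fell over all genes as well as among members. The calls after IFN-γ numbered 13 and 14 when WT library 1 or 2 was absent, and 10 and 11 when CKO library 1 or 2 was absent, and Hspa5, Hsp90b1, Hyou1, Dnajc3, Pdia4, Pdia6, Manf, Creld2, Herpud1 and Nupr1 passed in all 4 fits. Without CKO library 1 the count fell by more than 1.5 times, with Dnajb11, Sdf2l1, Pdia3, Sel1l, Cebpg and Ppp1r15a no longer called.

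After IL-4 no member passed the test between genotypes, where 2.96% of all genes were called either way (1.41% higher and 1.55% lower). By edgeR 3 of 32 had an unadjusted p under 0.05, against 14.1% of all genes, and DESeq2 gave 2 such members and called 1, Trib3. The median over ER members was −0.17, against −0.01 over all genes, and 17 of the 21 had values below 0. Hspa5 was not called, at 1412 and 1363 CPM in WT and 1146 and 1280.2 CPM in CKO (−0.19 ± 0.11, adjusted p = 0.488). Each of its CKO libraries was still below each WT library, but 47.8% of all tested genes had no overlap between these groups. Atf4 (−0.11 ± 0.10, adjusted p = 0.72), Ddit3 (−0.29 ± 0.15, adjusted p = 0.425) and Xbp1 (0.03 ± 0.08, adjusted p = 0.94) were likewise not called. Trib3, a pseudokinase induced by ATF4 and CHOP, was at 8.59 and 7.74 CPM in WT against 4.37 and 5.16 CPM in CKO (−0.77 ± 0.23, adjusted p = 0.12).

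Markers of macrophages and of other myeloid cells moved with the genotype. The 8 macrophage markers summed to 2959 and 3054 CPM in untreated WT and 4341 and 3975 CPM in untreated CKO libraries. The sums were 3130 and 3259 against 4880 and 4672 CPM after IFN-γ, and 3426 and 3260 against 4263 and 3613 CPM after IL-4. In the 3 settings 3, 5 and 0 of the 8 were higher in CKO, and 1, 1 and 2 were lower. Of all tested genes 8.60%, 10.4% and 1.41% were higher, and 9.37%, 8.01% and 1.55% lower. The summed level of 12 neutrophil and precursor genes was 42.8 and 50.04 CPM in untreated WT and 309 and 174 CPM in untreated CKO libraries, 57.4 and 71.03 against 401 and 400.1 CPM after IFN-γ, and 42.3 and 32.3 against 188 and 169 CPM after IL-4. Of the 11 of these genes tested, 10, 9 and 8 were higher in CKO in the 3 settings, and none was listed at 0 in any library. The 7 monocyte genes summed to 273 and 292 CPM in untreated WT and 618 and 581 CPM in untreated CKO libraries, 163 and 226 against 376 and 365 CPM after IFN-γ, and 150.2 and 157 against 228 and 275 CPM after IL-4, with 7, 6 and 5 of 7 higher. The 8 genes of B and plasma cells, which are rich in ER chaperones, summed to 21.01 to 31.8 CPM over all libraries. Ighm (7.84 to 28.2 CPM) and Sdc1 (2.41 to 15.2 CPM) had counts in every library, while Igkc and Mzb1 were at 0 in 11 of 12. The highest level of any other gene on this list was 0.236 CPM, for Tnfrsf17. In bulk RNA, fewer cells of a type and less RNA per cell cannot be told apart, and the part of neutrophil and monocyte RNA in the genotype differences was not tested.

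**Figure D2:**
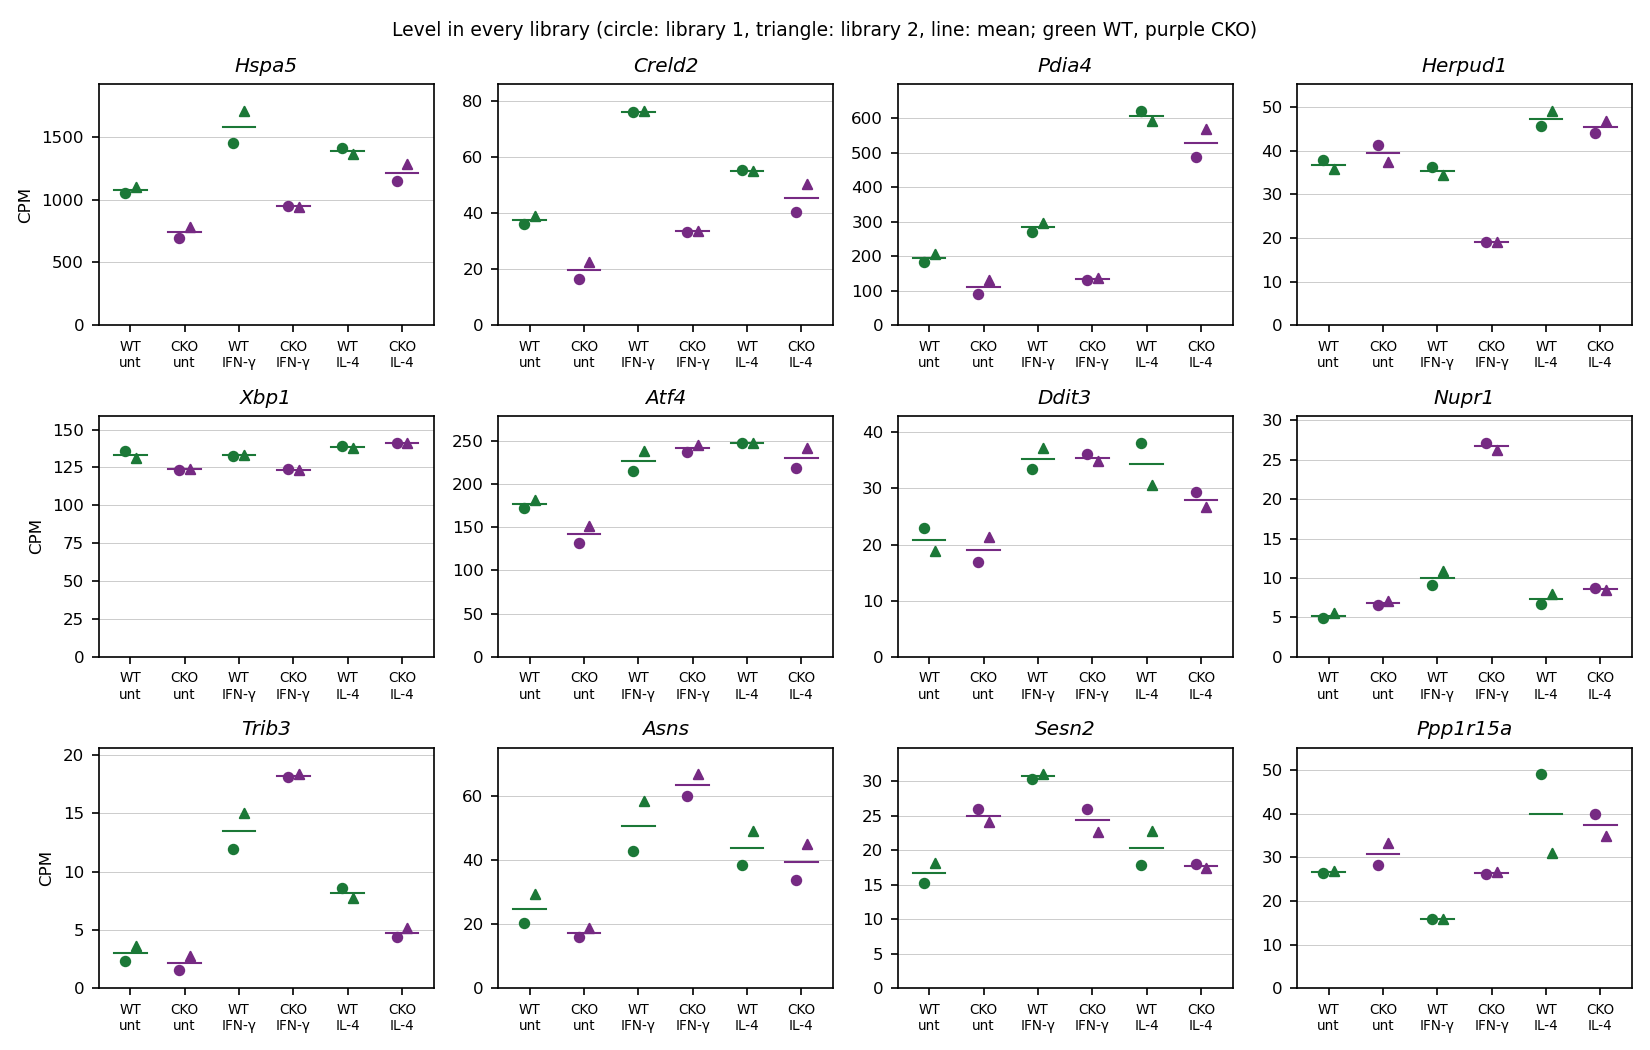
CPM (y axis, from 0, per gene) of 12 members in each of the 12 libraries, by group on the x axis, with points for libraries and a bar at the mean of 2. Creld2 and Pdia4 are lower in CKO before and after IFN-γ, Herpud1 is at 19.1 CPM in both IFN-γ-treated CKO libraries, and Nupr1 reaches 27.2 CPM there.

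IFN-γ raised both arms in WT and in CKO macrophages. In WT 17 members rose and 1 fell, against 12.4% and 11.8% of all genes (24.2% either way). In CKO 16 rose and 2 fell, against 14.7% and 11.9% (26.6% either way). Of the genes that rose, 14 were shared, 82.4% of the 17 in WT and 87.5% of the 16 in CKO, against 75.8% and 63.9% for all genes that rose. Within a genotype the IFN-γ and IL-4 responses were measured against the same untreated libraries, so the 2 responses share controls.

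Trib3 and Chac1, both ATF4 and CHOP targets, had the largest changes in each genotype. Trib3 went from 2.38 and 3.62 CPM to 11.97 and 15.04 CPM in WT, a log2 fold change of 2.17 ± 0.24 (adjusted p = 3.39e-05), and from 1.56 and 2.74 CPM to 18.1 and 18.4 CPM in CKO, a change of 3.06 ± 0.25 (adjusted p = 2.22e-06). Asns, which makes asparagine and is a standard ATF4 target, went from 20.2 and 29.2 CPM to 42.7 and 58.3 CPM in WT (1.03 ± 0.22, adjusted p = 0.00439) and from 15.9 and 18.7 CPM to 59.8 and 66.6 CPM in CKO (1.86 ± 0.22, adjusted p = 7.3e-05). Chac1, an enzyme that degrades glutathione, stayed low, going from 0.594 and 1.40 CPM to 1.86 and 3.06 CPM in WT (1.31 ± 0.41, adjusted p = 0.0358) and from 0.531 and 1.12 CPM to 3.31 and 3.75 CPM in CKO (2.04 ± 0.40, adjusted p = 0.00247). In each of these 6 pairings both treated libraries lay above both untreated ones. Treated and untreated groups did not overlap for 59.9% of all tested genes in WT and 61.8% in CKO.

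Of the transcription factors, Nupr1 rose most and is described with the genotype difference in response. Atf4 was at 215 and 238 CPM in treated WT (0.36 ± 0.10, adjusted p = 0.0204) and 237 and 246 CPM in treated CKO libraries (0.77 ± 0.10, adjusted p = 0.00012). Ddit3 was at 33.4 and 37.2 CPM in treated WT (0.76 ± 0.15, adjusted p = 0.00279) and 36.04 and 34.9 CPM in treated CKO (0.90 ± 0.15, adjusted p = 0.000865). Xbp1 was at 133 and 133 CPM in treated WT and 124 and 123 CPM in treated CKO libraries, with log2 changes of −0.01 ± 0.08 (adjusted p = 0.968) and 0.00 ± 0.08 (adjusted p = 0.999). Cebpg was not called in either genotype.

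Among the ER members 10 of 21 rose in each genotype. Creld2 rose to 76.1 and 76.4 CPM in WT (1.02 ± 0.14, adjusted p = 0.000224) and 33.4 and 33.7 CPM in CKO (0.77 ± 0.15, adjusted p = 0.00204). Pdia3, which also serves in MHC class I peptide loading, rose from 538 and 496 to 983 and 869 CPM in WT (0.84 ± 0.12, adjusted p = 0.000202) and from 306 and 384 to 662 and 645 CPM in CKO (0.92 ± 0.12, adjusted p = 9.98e-05). Calr, another member of the peptide-loading complex, rose by 0.70 ± 0.16 (adjusted p = 0.00638) in WT and 0.82 ± 0.16 (adjusted p = 0.00232) in CKO. Hspa5 rose by 0.55 ± 0.11 (adjusted p = 0.00269) and 0.36 ± 0.11 (adjusted p = 0.0295). Hsp90b1 (0.66 and 0.41), Dnajb11 (0.61 and 0.63), Pdia6 (0.51 and 0.40) and Manf (0.78 and 0.80) rose in WT and in CKO, as log2 fold changes. Pdia4 (0.55) and the ubiquitin ligase gene Syvn1 (0.73) rose in WT. In CKO, Atf6 (0.30) and Edem1 (0.42) rose and Eif2ak3 fell by 0.40 on the log2 scale (adjusted p = 0.0172). Ppp1r15a fell in WT from 26.4 and 26.9 CPM to 15.9 and 15.9 CPM (−0.74 ± 0.18, adjusted p = 0.01) and in CKO changed by −0.22 ± 0.18 (adjusted p = 0.399).

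The number of calls changed when 1 library was left out, in WT and in CKO. Over all genes fewer were called in each of these fits, except that more were called without untreated CKO library 2. Calr, Pdia4, Pdia6, Manf, Atf4 and Chac1 lost their call in WT without untreated library 1, and these and Ppp1r15a without IFN-γ library 2, which took the count from 18 to 12 and 11. In CKO the count of 18 became 14 without untreated library 1, when Atf6, Hspa5 (0.25, adjusted p = 0.168), Hsp90b1 and Pdia6 were not called, and 12 without IFN-γ library 1 or library 2, when Atf6, Eif2ak3, Hspa5, Hsp90b1, Pdia6 and Edem1 were not called.

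The response to IFN-γ differed between genotypes for 3 members by the interaction test, 1 more positive and 2 more negative in CKO, where 2.07% and 0.651% of all genes were called in these directions (2.72% either way). Herpud1 was at 37.9 and 35.7 CPM in untreated and 36.3 and 34.5 CPM in treated WT libraries (−0.06 ± 0.10, adjusted p = 0.756), and fell in CKO from 41.4 and 37.5 CPM to 19.1 and 19.1 CPM (−1.05 ± 0.10, adjusted p = 1e-05). The difference of the responses was −0.99 ± 0.14 (adjusted p = 0.00364), and it was called in each of the 8 fits that left out 1 library. Nupr1 rose from 4.89 and 5.53 CPM to 9.11 and 10.9 CPM in WT (0.95 ± 0.15, adjusted p = 0.000447) and from 6.60 and 7.07 CPM to 27.2 and 26.2 CPM in CKO (1.96 ± 0.14, adjusted p = 6.43e-07), a difference of 1.02 ± 0.20 (adjusted p = 0.0196). Sesn2 rose in WT from 15.3 and 18.1 CPM to 30.4 and 31.02 CPM (0.88 ± 0.14, adjusted p = 0.000533), while in CKO it was at 25.96 and 24.1 CPM untreated and 25.96 and 22.7 CPM treated (−0.04 ± 0.14, adjusted p = 0.864), a difference of −0.92 ± 0.19 (adjusted p = 0.0281). The interaction call of Nupr1 was lost without WT untreated library 2, WT IFN-γ library 1, or any of CKO untreated library 1, CKO IFN-γ library 1 and CKO IFN-γ library 2. That of Sesn2 was lost without either WT IFN-γ library, either CKO IFN-γ library, WT untreated library 1 or CKO untreated library 1.

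These genes sit at chr7:126623249-126630861 (Nupr1) and chr4:132492032-132510501 (Sesn2), both on the minus strand of GRCm38. For Atf4 the responses differed by 0.41 ± 0.14 (adjusted p = 0.199), for Asns by 0.83 ± 0.30 (adjusted p = 0.245), for Trib3 by 0.89 ± 0.35 (adjusted p = 0.281), for Ddit3 by 0.13 ± 0.21 (adjusted p = 0.875), for Hspa5 by −0.19 ± 0.15 (adjusted p = 0.702) and for Xbp1 by 0.01 ± 0.11 (adjusted p = 0.995), none of them called in this fit. Asns and Trib3 were called when no filter on low counts was applied (adjusted p = 0.002 for Asns and 0.0337 for Trib3).

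**Figure D3:**
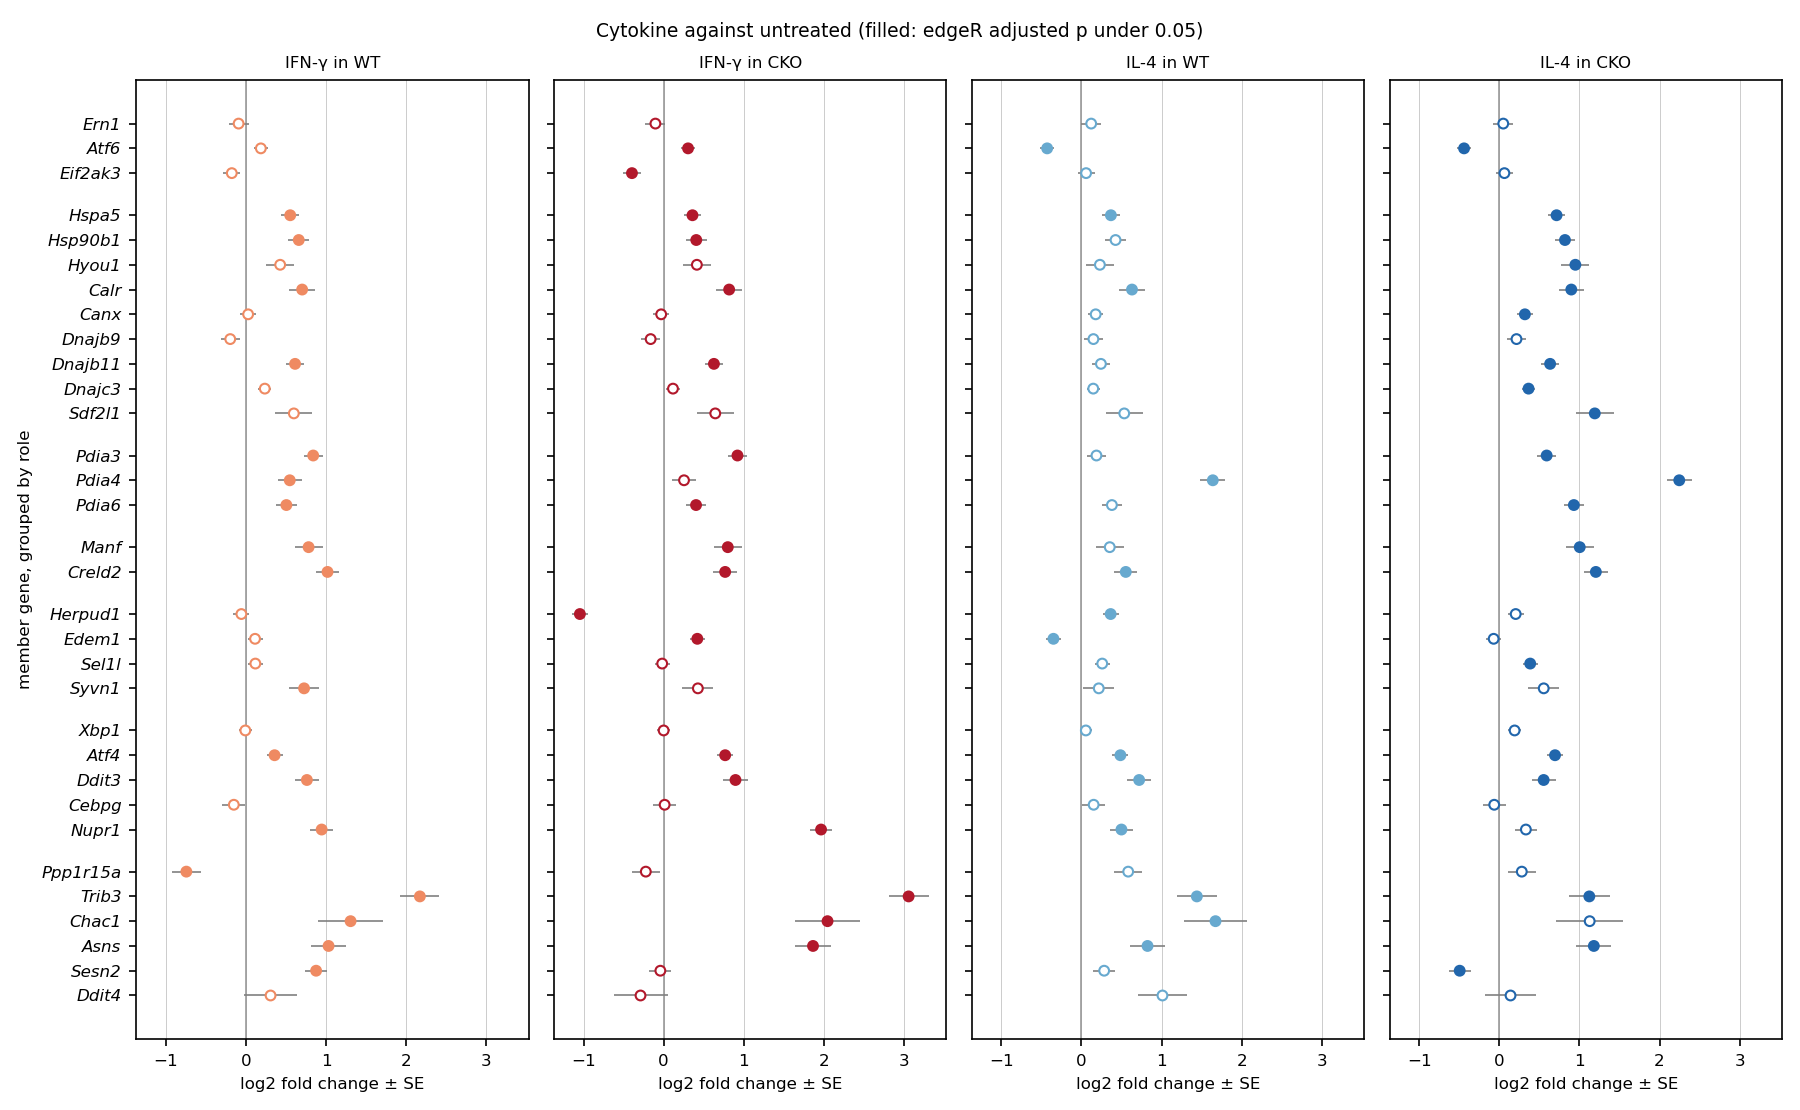
Log2 fold change of cytokine over untreated (x axis, ± SE from edgeR) for the 32 tested members (y axis, grouped by role), for IFN-γ and IL-4 in WT and CKO macrophages, 2 libraries per group. Filled points passed an adjusted p of 0.05; Trib3 has the largest IFN-γ response in both genotypes and Pdia4 the largest IL-4 response in CKO.

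IL-4 raised some ER chaperones and isomerases and some ATF4 targets in both genotypes, but the number of calls in WT and CKO depended on the fit. In WT 11 members rose and 2 fell, against 6.64% and 5.59% of all genes (12.2% either way). In CKO 18 rose and 2 fell, against 11.2% and 11.3% (22.5% either way). The shared genes that rose numbered 8, which is 72.7% of the 11 in WT and 44.4% of the 18 in CKO, against 79.9% and 47.3% for all genes. Chaperones that rose numbered 2 of 9 in WT and 8 of 9 in CKO, and isomerases 1 of 3 and 3 of 3. The order of the genotypes turned round when only the 4 libraries of a comparison were fitted, over all genes as well as among members. Then 19 members were called in WT and 11 in CKO, with 11 ER members higher in WT and 9 in CKO. Of all tested genes 3584 were called in WT and 1247 in CKO in these fits, against 1992 and 3664 in the main fit.

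Pdia4 changed most among the ER members. It went from 183 and 205 CPM to 619 and 590.2 CPM in WT (1.64 ± 0.15, adjusted p = 2.69e-05) and from 90.9 and 132 CPM to 488 and 569 CPM in CKO (2.25 ± 0.16, adjusted p = 2.18e-06). In each genotype both IL-4 libraries were above both IFN-γ libraries, a difference that was not tested. The other isomerases differed from it in size: Pdia6 changed by 0.38 ± 0.13 (adjusted p = 0.0779) in WT and 0.93 ± 0.13 (adjusted p = 0.000351) in CKO, and Pdia3 by 0.19 ± 0.12 (adjusted p = 0.371) and 0.59 ± 0.12 (adjusted p = 0.00421). Creld2 was at 55.4 and 54.99 CPM in IL-4-treated WT (0.55 ± 0.14, adjusted p = 0.0267) and 40.5 and 50.4 CPM in CKO libraries (1.21 ± 0.15, adjusted p = 0.000145). Sdf2l1 was at 108 and 107 CPM in WT (0.53 ± 0.23, adjusted p = 0.187) and 88.96 and 95.5 CPM in CKO (1.19 ± 0.23, adjusted p = 0.00511). In CKO both IL-4 libraries of these genes were above both untreated ones, and both untreated CKO libraries were below both untreated WT libraries. The groups of these comparisons did not overlap for 56.8% and 59.4% of all tested genes.

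Hspa5 rose by 0.37 ± 0.11 (adjusted p = 0.0481) in WT and 0.72 ± 0.11 (adjusted p = 0.000797) in CKO, and Calr by 0.63 ± 0.16 (adjusted p = 0.0232) and 0.90 ± 0.16 (adjusted p = 0.00215). In CKO the other ER genes that rose were Manf (1.004), Hyou1 (0.95), Hsp90b1 (0.82), Dnajb11 (0.63), Sel1l (0.39), Dnajc3 (0.37) and Canx (0.32), as log2 fold changes. In WT Herpud1 rose (0.36) and Edem1 fell by 0.35. The sensor Atf6 went from 199 and 181 CPM to 144 and 139 CPM in WT (−0.43 ± 0.08, adjusted p = 0.0062) and from 197 and 193 CPM to 140.4 and 147 CPM in CKO (−0.44 ± 0.08, adjusted p = 0.00375), so it fell in both genotypes while chaperones rose.

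Of the ATF4 arm, Trib3 rose to 8.59 and 7.74 CPM in WT (1.44 ± 0.25, adjusted p = 0.00241) and 4.37 and 5.16 CPM in CKO (1.12 ± 0.26, adjusted p = 0.00965), and Asns to 38.4 and 49.01 CPM (0.82 ± 0.22, adjusted p = 0.0298) and 33.7 and 44.9 CPM (1.18 ± 0.22, adjusted p = 0.0032). Chac1 rose to 2.61 and 3.72 CPM in WT (1.67 ± 0.40, adjusted p = 0.0179) and in CKO changed by 1.13 ± 0.42 (adjusted p = 0.0742). Atf4 rose by 0.49 ± 0.10 (adjusted p = 0.00747) and 0.70 ± 0.10 (adjusted p = 0.000482), and Ddit3 by 0.72 ± 0.15 (adjusted p = 0.00878) and 0.55 ± 0.15 (adjusted p = 0.0222). Xbp1 changed by 0.05 ± 0.08 (adjusted p = 0.729) in WT and 0.19 ± 0.08 (adjusted p = 0.0969) in CKO. Nupr1 rose in WT (0.50), and Sesn2 fell in CKO from 25.96 and 24.1 CPM to 18.1 and 17.5 CPM (−0.49 ± 0.14, adjusted p = 0.0241). Ddit4, an mTORC1 inhibitor, changed by 1.01 ± 0.31 (adjusted p = 0.0562) in WT and was called in none of the 9 comparisons.

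Over all genes, fewer were called for IL-4 in WT whichever of the 4 libraries was left out. In CKO fewer were called too, except without untreated library 2, where more were. The IL-4 calls of members in WT depended on each library. They fell from 13 to 3 without untreated library 1, 7 without untreated library 2, 5 without IL-4 library 1 and 4 without IL-4 library 2, and Pdia4 and Trib3 alone passed in all 4 fits. In CKO the 20 calls became 15 to 21 with 1 library left out, and without untreated library 1 Canx, Sel1l, Ddit3, Trib3 and Sesn2 lost theirs.

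No member passed the interaction test for IL-4, where 0.0368% of all genes did (0.0246% higher and 0.0123% lower in CKO). No single member is therefore shown to respond differently. By edgeR 9 of 32 members had an unadjusted p under 0.05, against 6.02% of all genes, and by DESeq2 11 did and none was called. The responses differed by −0.78 ± 0.20 (adjusted p = 0.508) for Sesn2, 0.65 ± 0.20 (adjusted p = 0.748) for Creld2, 0.35 ± 0.15 (adjusted p = 0.773) for Hspa5, 0.21 ± 0.14 (adjusted p = 0.773) for Atf4, −0.17 ± 0.21 (adjusted p = 0.88) for Ddit3 and 0.14 ± 0.11 (adjusted p = 0.799) for Xbp1. The median difference over all genes was −0.0003, and all members were measured from the same untreated libraries, so they are not independent. Over the 21 ER members the median difference was 0.34 and 18 were above 0, and without untreated CKO library 1 the median was 0.23 and no member was called. Without untreated CKO library 2, the higher of the untreated CKO pair for many chaperones, calls rose both over all genes and among members. The members then called were Dnajb11, Pdia6, Sdf2l1, Creld2, Pdia4 and Hyou1.

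**Figure D4:**
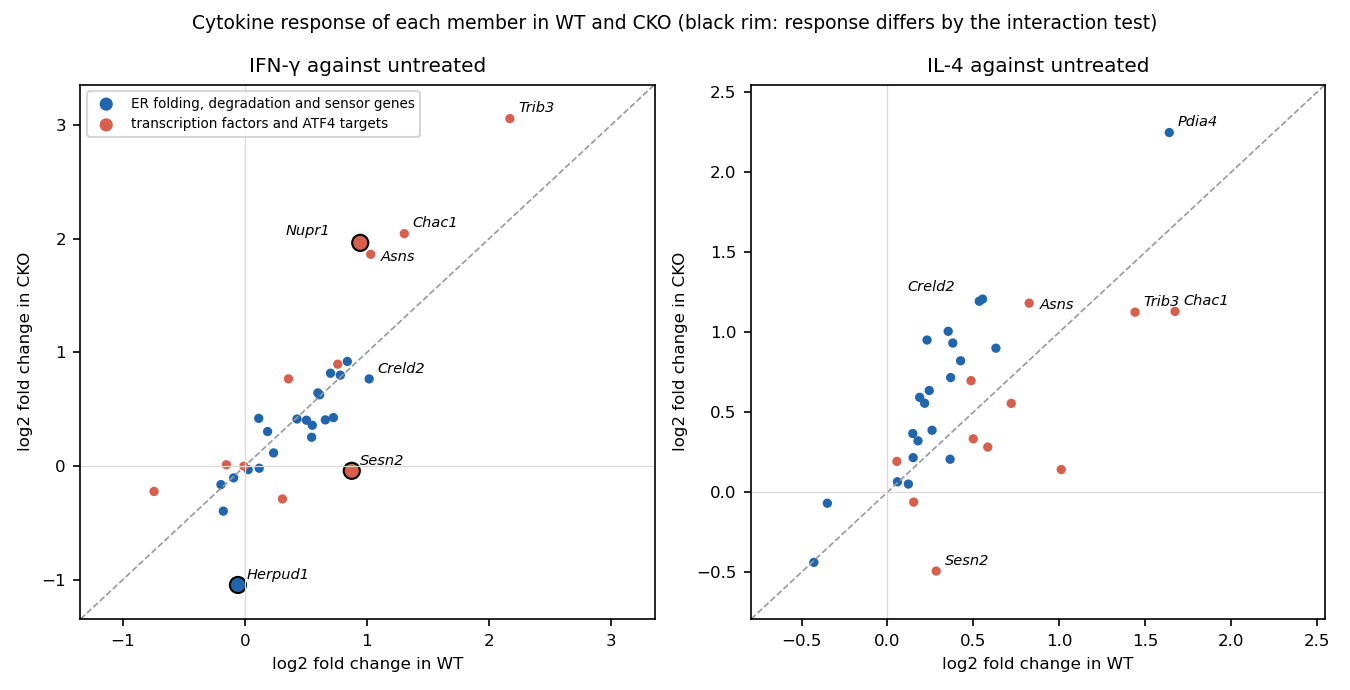
Log2 fold change in CKO (y axis) against that in WT (x axis) for each tested member, for IFN-γ (left) and IL-4 (right), with the dashed line marking equal responses. After IFN-γ, Herpud1, Nupr1 and Sesn2 (black rims) differ by the interaction test. After IL-4 no member passed that test, and 18 of 21 ER members, all measured from the same untreated libraries, lie above the line.

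Genes of the same pathways outside the 34 were read from lists chosen with earlier results of these data known, and each count is set beside the share of all tested genes. Of 57 other ER genes of folding, entry and degradation, 21 were lower and none higher in untreated CKO (9.37% of all genes were lower), including the oxidase Ero1lb (−0.72), the isomerase Pdia5 (−1.51) and the oligosaccharyltransferase subunits Rpn1 (−0.85) and Stt3b (−0.52), as log2 differences. That count was 5 without untreated CKO library 1, against 2.63% of all genes lower in that fit, and these 4 genes were among the 5. After IFN-γ 12 were lower and 1 higher (8.01% and 10.4% of all genes), again with Ero1lb (−1.07), Pdia5 (−1.25) and Rpn1 (−0.74), and with P4hb (−0.41). After IL-4 none of the 57 was called between genotypes by edgeR, where 10 had an unadjusted p under 0.05, and DESeq2 called 1.

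After IFN-γ, more of the 57 genes were called higher than lower, but the list's median log2 change was small, 0.05 in WT and 0.09 in CKO. The number that rose in WT was near the share of all genes. In WT 9 rose and 3 fell, with 12.4% and 11.8% of all genes called in these directions, and in CKO 15 rose and 3 fell, with 14.7% and 11.9%. Those with the smallest p were Creb3 (0.81), Ero1lb (0.78), Ppib (0.54) and Ufl1 (−0.52) in WT, and Creb3 (1.08), Lman1 (0.50), Ppib (0.51) and Rpn1 (0.63) in CKO. IL-4 raised 6 and lowered 1 in WT (6.64% and 5.59% of all genes) and raised 27 and lowered 2 in CKO (11.2% and 11.3%), with Stt3b (0.87 and 1.10) and the ER membrane protein Wfs1 (1.45 and 1.83) leading in WT and in CKO. Without untreated CKO library 1, 7 rose and 2 fell after IFN-γ in CKO, and 14 rose and 0 fell after IL-4 in CKO, where 11.7% and 6.46% of all genes rose in those fits.

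Of 24 other ATF4 targets tested, 2 were higher and 6 lower in untreated CKO (8.60% and 9.37% of all genes), the leading ones being Gpt2 (−0.43), Mthfd2 (−1.02), Cebpb (0.59) and Pck2 (0.39). A single target, Pck2, was called without untreated CKO library 1, and it was higher. After IFN-γ 2 were higher and 3 lower (10.4% and 8.01% of all genes), including the serine synthesis gene Psat1 (−1.60) and Jdp2 (−1.30). IFN-γ raised 10 and lowered 2 in WT (12.4% and 11.8% of all genes), and raised 12 and lowered 1 in CKO (14.7% and 11.9%). The cystine transporter gene Slc7a11, also an ATF4 target, fell in WT and CKO (−1.91 and −1.43), while Psat1 (1.81) and Jdp2 (2.51) rose in WT and Mthfd2 (1.72) and Gpt2 (0.67) in CKO. IL-4 raised 6 in WT and 11 in CKO (6.64% and 11.2% of all genes), among them Gpt2 (0.97 and 0.98), Phgdh (1.40 and 2.14), Atf3 (0.89 and 0.89) and Atf5 (1.12 and 1.18), and lowered none. The targets that rose in CKO numbered 9 after each cytokine without untreated CKO library 1. Gpt2 was lower in CKO after IL-4 (−0.42 ± 0.10, adjusted p = 0.0406) and its IFN-γ response differed between genotypes (0.69 ± 0.14, adjusted p = 0.026).

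Of the 18 cytosolic aminoacyl-tRNA synthetases, many of them ATF4 targets, 11 were lower in untreated CKO (9.37% of all genes), with Iars at −0.78 and Rars at −0.58, but none was called without untreated CKO library 1, where the list's median was −0.28 against −0.43 with it. After IFN-γ 1 was lower, Iars (−0.55), where 8.01% of all genes were lower. IFN-γ raised 5 and lowered 1 in WT (12.4% and 11.8% of all genes) and raised 10 in CKO (14.7%), 7 without untreated library 1. Wars, which interferon is known to induce, rose most (2.33 in WT and 2.87 in CKO), and Kars rose too (1.05 and 1.27). IL-4 raised 2 in WT, Eprs (0.58) and Rars (0.88), and 13 in CKO (6.64% and 11.2% of all genes), where Eprs (0.68) and Rars (1.05) had the smallest p, and 8 without untreated CKO library 1. None was called between genotypes after IL-4 by edgeR or DESeq2, and 2 had an unadjusted p under 0.05 by each.

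Of 12 genes of eIF2, its kinases and eIF2B, the interferon-induced kinase gene Eif2ak2 (PKR) rose after IFN-γ (0.90 in WT and 1.33 in CKO) and the amino acid sensing kinase gene Eif2ak4 (GCN2) fell (−0.51 and −0.63). The list's IFN-γ calls, 2 higher and 1 lower in WT, and 3 higher and 1 lower in CKO, were near the 24.2% and 26.6% of all genes called either way. After IL-4 they were 1 higher in WT, Eif2b2 (0.74), and 3 higher and 1 lower in CKO, again with Eif2b2 (0.59) and Eif2ak4 (−0.48), against 12.2% and 22.5% of all genes. Between genotypes Eif2b3 (−0.55) and Eif2s1 (−0.43) were lower in untreated CKO, where 9.37% of all genes were lower. None was called between genotypes after either cytokine by edgeR or DESeq2, with 2 at an unadjusted p under 0.05 by edgeR after IFN-γ and 1 after IL-4. Without untreated CKO library 1 the calls in CKO were Eif2ak2 and Eif2ak4 after IFN-γ and Eif2ak4 after IL-4, and none was called between untreated genotypes.

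Some counts can hold reads of other genes, since whether counting used strand is not stated in the labels. By the GENCODE annotation, exons of Eif2ak3 share 485 bases with Gm43292 and those of Hsp90b1 share 415 with 1810014B01Rik. Manf exons share 166 with 4930524O07Rik and 146 with Dcaf1, and Syvn1 exons share 91 with Mrpl49. Those of Ddit3 share 68 with Mars, which is itself one of the synthetases above. All of these overlaps are with the opposite strand. On the same strand, Ddit3 exons share 105 bases with another annotated gene of that name. Other overlaps are not listed.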

How the data were processed

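RNA from mouse bone marrow-derived macrophages was sequenced from 12 libraries in 6 groups of 2, prepared per the labels' protocol with an RNA exome (capture) kit. The authors deposited whole-number counts per gene in a single table. The submitters' processing notes name the aligner TopHat2 2.0.13, the counter HTSeq 0.6.1, CASAVA 1.8.2 and Picard 1.97, and both GRCh38 and mm10, with no role for either build. Annotation release and strand setting: not given in the sources used here. Capture limits the counts to targeted transcripts, and levels are compared within a gene.

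Counts were fitted with edgeR 4.0.16 (R 4.3.3) by its quasi-likelihood test: low-count genes were removed by edgeR's expression filter, leaving 16292 of 48440 genes, libraries were scaled by TMM, and 1 robust fit of 6 group means (6 residual degrees of freedom) served 9 comparisons. P-values were adjusted by Benjamini-Hochberg over all tested genes within a comparison, and genes under 0.05 are called. A positive log2 fold change means higher in CKO, or higher after cytokine, and an interaction is the response in CKO minus that in WT. The SE is derived from the fold change and its F statistic. The pipeline was tested on simulated data.

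The members and all lists were chosen with earlier results of these data known. All 34 members are accounted for; called members are named, the 4 largest called and non-overlapping ones per 2-group comparison get every library's value, Hspa5, Xbp1, Atf4 and Ddit3 are named throughout, and up to 4 called genes of smallest adjusted p come from each other list. Alternatives were DESeq2 1.42.0, its size factors, no filter, a mean CPM of 5, a 2-fold minimum, only the compared groups, a replicate block and leaving out each library. Promoters came from RefSeq (GRCm38.p6) and positions from GENCODE, where all 34 members matched by gene ID.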

Additional observations from a re-analysis of the deposited data

Results flagged for a closer look

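The response to IFN-γ differed between WT and CKO macrophages for 3 of the 32 tested members by the interaction term of the edgeR fit, against 2.72% of all tested genes. For Herpud1 the log2 response differed by −0.99 (CKO minus WT, adjusted p = 0.00364, 2 libraries per group), with both CKO libraries at 19.1 CPM after IFN-γ. For Nupr1 the response was 1.02 higher in CKO (adjusted p = 0.0196). For Sesn2 the difference was −0.92 (adjusted p = 0.0281).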

How the results depend on the processing

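Counts of called members, out of 32, are compared with the main values of 15, 16, 0, 18, 18, 13, 20, 3 and 0 for CKO against WT in untreated, IFN-γ-treated and IL-4-treated cells, IFN-γ in WT and CKO, IL-4 in WT and CKO, and the IFN-γ and IL-4 interactions. With one library left out they ranged from 7 to 18, 10 to 14, 0 to 0, 11 to 16, 12 to 21, 3 to 7, 15 to 21, 1 to 5 and 0 to 6 in that order. Asking also for a 2-fold change left 0, 3, 4, 5, 3, 6 and 1 for untreated and IFN-γ genotype, IFN-γ in WT and CKO, IL-4 in WT and CKO, and the IFN-γ interaction. Fitting only the compared groups gave 3 for untreated genotype, and 19 for IL-4 in WT and 11 in CKO. For IL-4 this turned the order of the genotypes round, as it did over all genes. In IL-4-treated cells 1 member, Trib3, was called between genotypes by DESeq2, without the low-count filter, with the replicate block, and with untreated CKO library 1 left out of the shared spread (added after seeing the data). Without the filter the interactions gave 5 (IFN-γ) and 4 (IL-4), and with a replicate block within genotype the IL-4 interaction gave 1, Sesn2. No called member changed direction under any alternative. The labels number the libraries 1 and 2 in each group, and nothing says that a number marks a shared animal or day. Deviations of same-numbered libraries correlated from 0.11 to 0.73 within a genotype and from −0.05 to 0.42 across genotypes, over 9318 genes. A replicate block over all groups gave 17, 18, 1, 20, 20, 18, 22, 4 and 0 calls in the order above, and it removed no member's call. The block gained Asns for the IFN-γ interaction (0.84, adjusted p = 0.0081, and 0.83, adjusted p = 0.0023, within genotype). Over all genes the main counts were 2927, 2995, 482, 3935, 4333, 1992, 3664, 443 and 6, and over all alternatives they ran from 861 to 5005, 1032 to 3987, 128 to 1129, 1752 to 4993, 1835 to 5818, 809 to 3584, 1204 to 5463, 118 to 1080 and 0 to 371. The 2-fold minimum can only remove calls, and the cause of the other shifts was not tested. With 2 libraries per group, small changes of genes at low counts, such as Chac1, are the least certain.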

Other observations

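A list of heat shock genes, 12 tested of 13 listed, gave another view of protein folding outside the ER. Most encode cytosolic proteins, but Hspd1 and Hspe1 encode the mitochondrial chaperonin. In untreated CKO macrophages 4 were lower than in WT by edgeR's adjusted p: Hsph1 (−0.75), Hspd1 (−0.82), Hsp90aa1 (−0.72) and Hspa8 (−0.39), as log2 differences, where 9.37% of all tested genes were lower. None of the 4 was called without untreated CKO library 1, with adjusted p from 0.0551 to 0.2304. After IFN-γ Hspa1a (1.85) and Hspa1b (1.41) were higher in CKO and Hspe1 was lower (−0.68), where 10.4% of all genes were higher and 8.01% lower. Hspa1a and Hspa1b are near-identical copies whose reads the authors' counting may have split, so their separate values are uncertain. IL-4 raised 3 of the 12 in WT and 9 in CKO, led by Hsph1 (1.22 in WT and 1.62 in CKO), where 6.64% and 11.2% of all genes rose. IFN-γ raised 1 in WT, Hspa8 (0.37), which is below the 12.4% of all genes that rose, and 4 in CKO, against 14.7%. Without untreated CKO library 1 the 9 that rose after IL-4 and the 4 that rose after IFN-γ became 3 each. None of the 12 passed either interaction test by edgeR or DESeq2, and 3 had an unadjusted p under 0.05 for IFN-γ and 0 for IL-4 by both tools.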
